A study of Mus musculus with 6 samples.

Results

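A set of 710 regions of open chromatin carried more signal in mouse intestinal organoids given prostaglandin E2 (PGE2) than in organoids given arachidonic acid (AA) or Vehicle. The members were chosen by their measured values. On the autosomes, a peak was taken if its mean over the 6 libraries was at least 1 CPM (a count scaled to the total of its library) and if its lower PGE2 library held at least 1.3 times the signal of the highest of the 4 AA and Vehicle libraries. A peak was left out if the lowest of the PGE2 and AA libraries together held at least 1.5 times the highest Vehicle library, which removed 10 peaks. The 710 members were 0.854% of the 83180 autosomal peaks with a mean of at least 1 CPM, and the whole table held 90823 peaks. Since the rule read every library, the higher signal of the members with PGE2 is a description and is given without a test.

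The organoids were grown from isolated mouse crypts in Matrigel and were given 50 nM PGE2, 25 µM AA, the fatty acid precursor of prostaglandins, or Vehicle for 3 days. The protocol names the agent PGE2, while the design text names a dimethyl analogue of it, and the labels give no genotype, strain, age or intestinal segment. All 3 groups shared a medium with EGF, Noggin, R-spondin, the Wnt-activating GSK3 inhibitor CHIR-99021 and the ROCK inhibitor Y-27632, so the Vehicle group is not free of Wnt pathway stimulation. Epithelial cells were sorted and open chromatin was tagged by Omni-ATAC, a transposase assay. Each group had 2 libraries. Separate cultures are not stated for them in the labels, so p-values and standard errors measure a spread that may be technical.

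The libraries held 12374232 to 14236985 counts in peaks. Of 10 epithelial marker genes, 9 had a peak at a gene end, with summed signals of 721 to 732 CPM with PGE2, 737 to 749 CPM with AA and 760.1 to 762.5 CPM with Vehicle; Krt20 had none. Markers of stromal and immune cells had such a peak at 1 gene of 10 each, and endothelial markers at 4 of 10, with summed signals of 9.21 to 26.3 CPM per library. None of the members lay nearest to a gene of these 4 marker lists. The number of counts in each peak limits its precision: the median member held 102.5 and 125 counts in the PGE2 libraries, 69.5 and 64 in the AA libraries and 59 and 55.5 in the Vehicle libraries.

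PGE2 is a lipid signal that intestinal epithelium receives through EP receptors on the cell surface. Some of these receptors couple through the stimulatory G protein to adenylyl cyclase, which makes cyclic AMP; this activates protein kinase A and CREB, a factor that binds the cyclic AMP response element in DNA. Promoters of many widely used genes lie in CpG islands, stretches rich in G and C in which the CG dinucleotide is frequent, and are commonly open in most cells.

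Many of the members lay over such promoters, and the promoters of 6 of the members with the most PGE2 signal are shown for that reason. Each is the RefSeq promoter in assembly GRCm38.p6, to which mm10 corresponds, 250 bases before to 50 after the annotated start, read 5′ to 3′ along the gene's strand, with every CG dinucleotide in capitals. The Stt3b promoter (chr9:115310419-115310718, minus strand) held 32 CG dinucleotides, Fam102a (chr2:32535109-32535408, plus strand) 44, Sun1 (chr5:139200387-139200686, plus strand) 36, Dazap2 (chr15:100615412-100615711, plus strand) 43, Zfp131 (chr13:119790683-119790982, minus strand) 36 and Gjb2 (chr14:57104653-57104952, minus strand) 27.
Stt3b promoter: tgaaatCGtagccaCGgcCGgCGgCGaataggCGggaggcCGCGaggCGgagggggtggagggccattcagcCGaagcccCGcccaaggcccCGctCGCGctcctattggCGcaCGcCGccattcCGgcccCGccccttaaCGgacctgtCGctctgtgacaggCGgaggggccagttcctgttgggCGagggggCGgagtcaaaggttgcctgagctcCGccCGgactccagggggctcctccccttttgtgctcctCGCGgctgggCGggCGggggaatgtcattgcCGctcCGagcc
Fam102a promoter: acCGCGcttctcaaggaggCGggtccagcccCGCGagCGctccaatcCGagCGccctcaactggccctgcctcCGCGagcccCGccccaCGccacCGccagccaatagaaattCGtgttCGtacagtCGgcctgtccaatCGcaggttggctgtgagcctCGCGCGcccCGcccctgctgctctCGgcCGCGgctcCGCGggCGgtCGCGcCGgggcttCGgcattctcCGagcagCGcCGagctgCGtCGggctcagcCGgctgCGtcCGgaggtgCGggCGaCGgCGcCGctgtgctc
Sun1 promoter: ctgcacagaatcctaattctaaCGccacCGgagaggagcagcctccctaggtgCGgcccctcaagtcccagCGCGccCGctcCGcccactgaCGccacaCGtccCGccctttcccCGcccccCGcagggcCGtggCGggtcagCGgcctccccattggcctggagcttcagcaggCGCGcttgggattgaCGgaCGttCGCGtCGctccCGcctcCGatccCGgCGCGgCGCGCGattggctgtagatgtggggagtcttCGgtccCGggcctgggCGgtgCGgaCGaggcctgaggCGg
Dazap2 promoter: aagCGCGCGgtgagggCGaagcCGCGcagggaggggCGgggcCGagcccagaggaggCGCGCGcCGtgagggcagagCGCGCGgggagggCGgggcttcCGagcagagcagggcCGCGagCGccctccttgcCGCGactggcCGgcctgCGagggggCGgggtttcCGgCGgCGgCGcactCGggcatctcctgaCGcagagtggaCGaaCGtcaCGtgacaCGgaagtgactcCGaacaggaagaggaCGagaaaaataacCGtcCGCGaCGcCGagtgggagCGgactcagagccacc
Zfp131 promoter: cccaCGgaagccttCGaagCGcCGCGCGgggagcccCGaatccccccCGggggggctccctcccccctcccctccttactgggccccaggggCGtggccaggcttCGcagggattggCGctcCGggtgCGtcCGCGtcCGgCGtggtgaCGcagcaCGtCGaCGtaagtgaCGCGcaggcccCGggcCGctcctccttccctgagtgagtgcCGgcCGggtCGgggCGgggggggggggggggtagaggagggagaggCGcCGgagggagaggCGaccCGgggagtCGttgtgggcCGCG
Gjb2 promoter: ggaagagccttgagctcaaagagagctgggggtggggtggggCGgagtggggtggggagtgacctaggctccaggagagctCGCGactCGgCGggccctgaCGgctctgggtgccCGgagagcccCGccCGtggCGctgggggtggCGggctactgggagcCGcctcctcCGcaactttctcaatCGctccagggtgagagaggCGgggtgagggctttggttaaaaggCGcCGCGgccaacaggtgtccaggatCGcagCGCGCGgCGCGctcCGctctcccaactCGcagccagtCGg

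The promoter of Sec62 (chr3:30792626-30792925, plus strand), picked for contrast after its values were seen, held 4 CG dinucleotides and 46.0% G and C. A member peak overlapped part of this window. That peak was centred 571 bp from the annotated start and lay mostly beyond the window, so the bases shown do not describe the whole member.
Sec62 promoter: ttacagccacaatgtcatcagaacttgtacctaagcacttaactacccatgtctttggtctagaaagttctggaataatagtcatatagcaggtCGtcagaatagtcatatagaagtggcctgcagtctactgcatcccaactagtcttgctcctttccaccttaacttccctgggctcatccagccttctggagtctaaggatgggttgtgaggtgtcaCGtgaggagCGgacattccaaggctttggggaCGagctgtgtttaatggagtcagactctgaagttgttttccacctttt

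The median signal of the 710 members was 7.85 and 9.34 CPM in the PGE2 libraries, 4.88 and 5.17 CPM in the AA libraries and 4.60 and 4.30 CPM in the Vehicle libraries. The PGE2 libraries stood above all others, as the rule requires, the AA libraries were slightly above the Vehicle libraries, and PGE2 replicate 2 was above PGE2 replicate 1. Over all 83180 peaks the corresponding medians were 5.21 and 5.08 CPM with PGE2, 5.27 and 5.17 CPM with AA and 5.30 and 5.35 CPM with Vehicle. Members took 0.904% and 1.06% of all counts in the PGE2 libraries, 0.608% and 0.63% in the AA libraries and 0.553% and 0.534% in the Vehicle libraries. In libraries made from many cells, more cells of a type that has a region open and more signal per cell cannot be told apart.

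**Figure D1:**
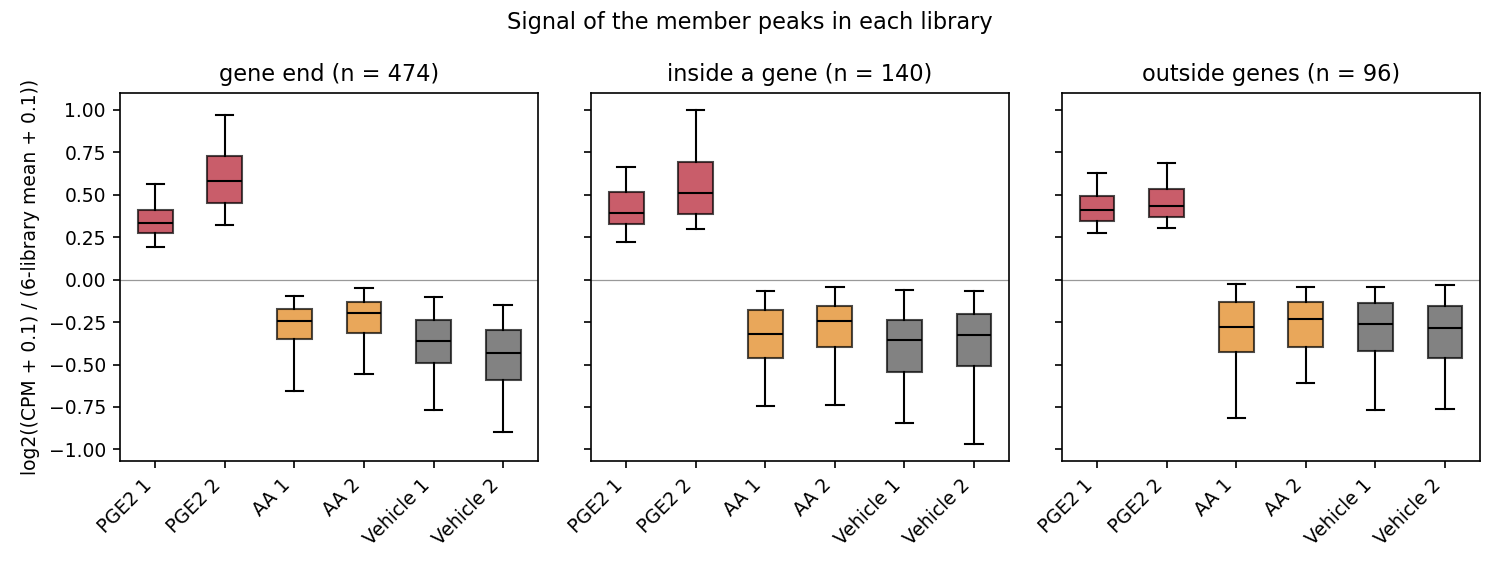
Each box shows the log2 ratio of a member's CPM to its mean over the 6 libraries (0.1 CPM added to both) for members at gene ends (474), inside genes (140) and outside genes (96), with the median as a line, quartiles as the box and the 5th to 95th percentiles as whiskers. At gene ends PGE2 replicate 2 lay above PGE2 replicate 1 and AA above Vehicle, while outside genes the AA and Vehicle boxes covered much the same range.

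The edgeR model, fitted to all tested peaks with TMM scaling, gave the members a median log2 change of 0.89 for PGE2 over Vehicle (range 0.46 to 2.39) and 0.75 for PGE2 over AA (range 0.42 to 2.67). Over all 83180 peaks the medians were 0.00 and 0.01. All 710 members passed the filter on low counts. Of them, 599 were called higher with PGE2 than with Vehicle (edgeR quasi-likelihood test, Benjamini-Hochberg adjusted p under 0.05), where 14.3% of all tested peaks were called higher, and 537 were called higher than with AA, where 4.88% were. The rule used both contrasts, so nothing is read from these shares. DESeq2, which gave an adjusted p to fewer peaks, called 406 of 541 members higher against Vehicle (7.8% of all peaks it tested) and 191 of 336 against AA (0.974%). Without AA replicate 1, edgeR called 299 members higher against AA (1.25% of all tested peaks).

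Most ratios lay near the threshold. The lower PGE2 library exceeded the highest other library 1.3-fold to 2.29-fold, with a median of 1.38, and 405 members lay between 1.3 and 1.4, while 139 reached 1.5 and 10 reached 2. A further 998 peaks with a ratio of 1.2 to 1.3 lay just outside. The member nearest to the threshold was at Naxe, an epimerase gene of NADPH repair, with 24.3 and 24.6 CPM with PGE2, 18.7 and 17.8 CPM with AA and 17.1 and 15.9 CPM with Vehicle. Cmc1 and Grsf1, members at ratios of 1.3, had 30.5 CPM with PGE2, 20.4 CPM with AA and 17.8 CPM with Vehicle, and 20.2 CPM with PGE2, 13.3 CPM with AA and 11.8 CPM with Vehicle. Just outside, Heg1 had 7.82 and 7.77 CPM with PGE2, 5.06 and 5.98 CPM with AA and 4.45 and 4.65 CPM with Vehicle. Rgs19 had 12.2 and 14.4 CPM with PGE2, 8.50 and 9.37 CPM with AA and 9.05 and 9.30 CPM with Vehicle. Zfp341 had 38.0 and 46.5 CPM with PGE2, 27.5 and 29.3 CPM with AA and 26.8 and 23.7 CPM with Vehicle. In all 6 of these peaks the PGE2 libraries lay above the others, with no gap in the ratio between members and the other peaks.

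Each PGE2 library was also read in peaks chosen without it. With PGE2 replicate 1 alone, 1656 peaks met the rule, and in PGE2 replicate 2, which took no part in that choice, 70.0% of them lay above every AA and Vehicle library (16.2% of all peaks) and 41.4% reached 1.3 times the highest, against 3.96% of all peaks that passed the minimum. With PGE2 replicate 2 alone, 3341 peaks met the rule, and in PGE2 replicate 1 85.4% of them lay above every AA and Vehicle library (19.1% of all peaks) and 20.5% reached 1.3 times the highest, against 1.9% of all peaks. The AA and Vehicle libraries were the same in the choice and in the reading, so these shares are a description. The 2 choices differed in place: 37.0% of the peaks chosen with replicate 1 and 72.9% of those chosen with replicate 2 lay at gene ends. PGE2 replicate 2 exceeded PGE2 replicate 1 in 552 members (77.7%, against 43.9% of all peaks), with a median ratio of 1.12 (0.976 over all peaks).

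The rule did not use position, and a larger share of the members than of all peaks lay at gene ends. A gene-end peak overlaps the 1 kb on either side of an annotated start of a protein-coding gene, or of either end where the promoter table holds no start for the gene. Of the 710 members, 474 were gene-end peaks (66.8%, Wilson 95% interval 63.2% to 70.1%, counting error only), against 14650 of the 83180 peaks (17.6%). A further 140 members lay inside genes (19.7%, against 42.6%) and 96 outside genes (13.5%, against 39.8%). The median member was centred 415 bp from the nearest annotated start or end and was 790 bp wide, against 10902 bp and 580 bp for all peaks. No enrichment test was made.

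The gene-end share depended on 1 library and on the scaling. Gene-end peaks took 38.2% and 40.0% of all counts in the PGE2 libraries, 36.0% and 36.6% in the AA libraries and 35.5% and 34.9% in the Vehicle libraries, so that the highest value was that of PGE2 replicate 2. Without PGE2 replicate 2 the gene-end share of the peaks chosen was 37.0%. With gene-end peaks and other peaks scaled each to their own totals, which takes out a change common to gene ends, 632 peaks met the rule, 443 of them members, and 32.9% lay at gene ends. Of the 474 members at gene ends 207 still met the rule. The 236 members away from gene ends met it by construction, since this scaling raises the PGE2 ratio of every such peak. With 3 other scalings (TMM, DESeq2 size factors and the separate one), 422 members (59.4%) met the rule under each, 205 of them at gene ends.

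Members at gene ends had a median of 13.3 and 16.5 CPM in the PGE2 libraries, 8.85 and 9.05 CPM in the AA libraries and 8.11 and 7.71 CPM in the Vehicle libraries. Members inside genes had 3.26 and 3.48 CPM with PGE2, 1.90 and 1.86 CPM with AA and 1.72 and 1.82 CPM with Vehicle, and those outside genes 2.53 and 2.43 CPM, 1.37 and 1.5 CPM, and 1.44 and 1.47 CPM in the same order. The excess of PGE2 replicate 2 over replicate 1 was seen in 85.9% of the members at gene ends, 61.4% of those inside genes and 61.5% of those outside. Gene-end peaks in general carry more signal, so the shares were also compared among peaks of like signal. Among peaks with a mean of 1 to 2 CPM, 30.9% of 165 members and 5.81% of all peaks lay at gene ends, and at 5 to 10 CPM 73.4% of 124 members and 12.1% of all peaks did. At 20 CPM or more these shares were 95.7% of 115 members and 46.7% of all peaks.

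**Figure D2:**
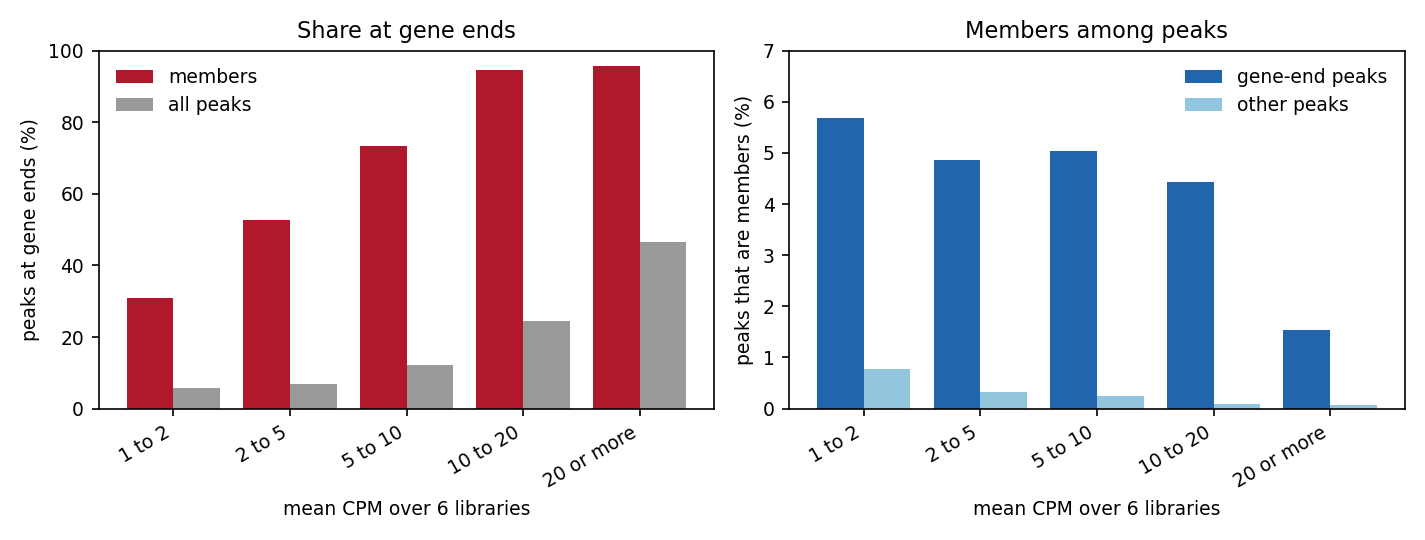
Left, bars show the percent of members and of all autosomal peaks that lay at gene ends, by mean CPM over the 6 libraries; right, the percent of gene-end peaks and of other peaks that were members. The members' share at gene ends is above that of all peaks in each of the 5 ranges, and members were 1.55% of gene-end peaks at 20 CPM or more against 5.69% at 1 to 2 CPM.

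Promoters at the members were richer in G and C than promoters at peaks in general. Of the RefSeq promoter windows of 300 bases, 311 lay at members and 9872 at peaks of the whole set. The members' windows had a median of 69.7% G and C and 30 CG dinucleotides, against 61.7% and 21 in the windows of all peaks. CG dinucleotides occurred at a median 0.864 of the number that the bases alone would give, against 0.763. By a definition of CpG-rich as at least 50% G and C and a ratio of at least 0.6, 89.7% of the members' windows and 69.6% of those of all peaks were CpG-rich. Among peaks under 5 CPM, these shares were 83.6% of 61 windows and 45.4%.

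Log2 changes were set beside the same property over promoters in general. Peaks over promoter windows were split by the G and C content of the window into 4 bins of like size, and members were 0.843%, 1.54%, 3.02% and 7.42% of the peaks from the lowest to the highest bin. Median log2 changes of PGE2 over Vehicle over all peaks of the bin, members included, were -0.01, 0.07, 0.23 and 0.51 in that order. For PGE2 over AA they were 0.04, 0.05, 0.14 and 0.35, and for AA over Vehicle -0.02, 0.04, 0.11 and 0.18. Peaks of the top bin (68.3% to 88.7% G and C) took 6.84% and 7.87% of the counts in the PGE2 libraries, 5.95% and 6.19% in the AA libraries and 5.56% and 5.36% in the Vehicle libraries. The 3 groups did not overlap, and the 2 PGE2 libraries differed by more than the libraries of either other group. In the lowest bin the shares were 5.98% and 5.95% in the PGE2 libraries, 5.85% and 5.87% in the AA libraries and 6.00% and 5.99% in the Vehicle libraries, a narrow span with PGE2 between the others. PGE2 replicate 2 thus exceeded replicate 1 in the top bin and not in the lowest. Whether the libraries differ in a technical bias by G and C content was not tested.

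**Figure D3:**
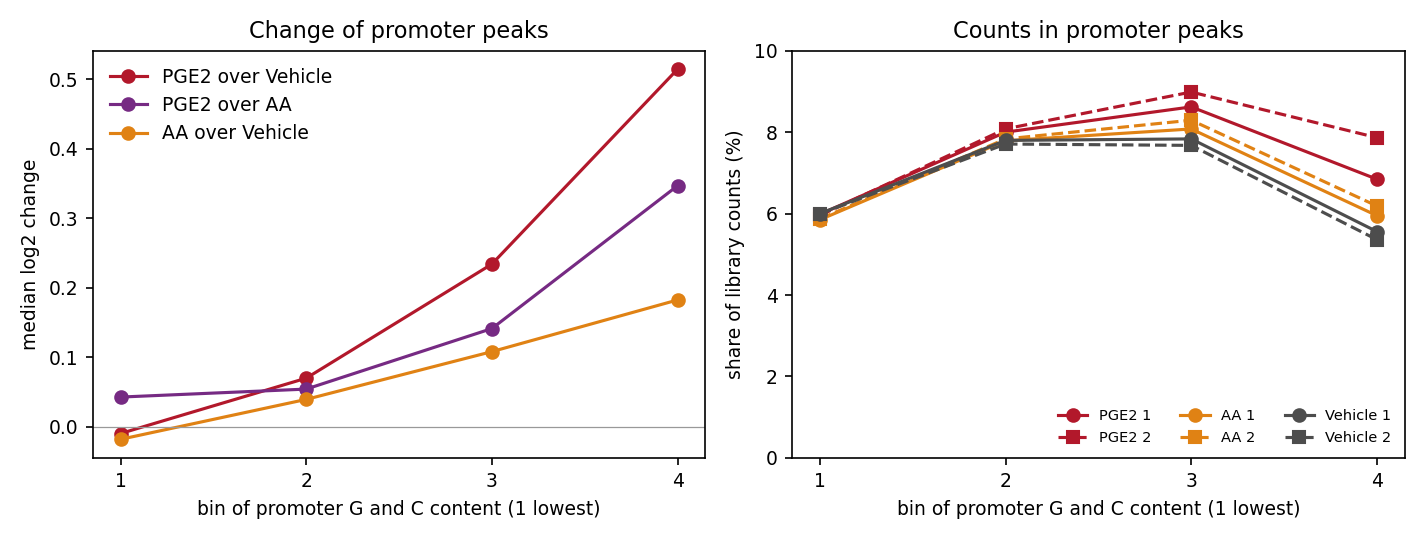
Left, the median log2 change of promoter peaks by bin of the promoter's G and C content for the 3 comparisons; right, the percent of each library's counts in those peaks, with each line a library. In the top bin the median reached 0.51 for PGE2 over Vehicle and the PGE2 libraries held 6.84% and 7.87% of counts, against 5.36% to 6.19% in the other libraries.

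Short motifs were searched on both strands of the promoter windows. The full cyclic AMP response element TGACGTCA was found in 13 of 311 member windows (4.18%) and in 3.33% of the 9872 windows of all peaks, and its 5-base core TGACG, which is part of it, in 29.9% and 30.8%. The GC box GGGCGG, bound by SP and KLF factors, was found in 81.4% and 67.0%. Some motifs with more A and T were less frequent in member windows: CCAAT, bound by NF-Y, in 24.4% and 38.4%, the TEAD motif GGAATG in 7.72% and 11.4% and the AP-1 motif TGANTCA in 2.89% and 5.17%. The ETS motif CCGGAAG, mostly G and C, was less frequent as well, in 13.2% and 17.4%. Of the promoters shown above, those of Sun1, Dazap2, Zfp131, Gjb2 and Sec62 held TGACG, and all but that of Sec62 held the GC box. A match is not a bound site, and windows differ in base composition.

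**Figure D4:**
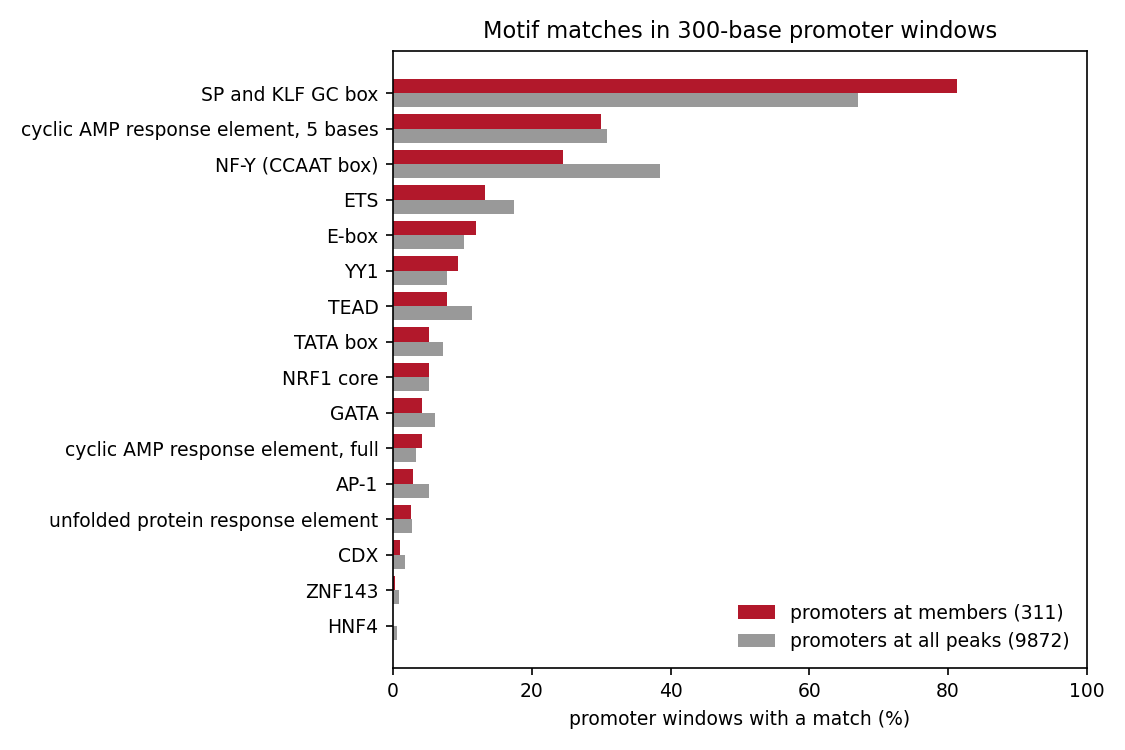
Bars give the percent of 300-base promoter windows with at least 1 match to each of 16 motifs, for the 311 windows at members and the 9872 windows at all autosomal peaks. The GC box is in 81.4% of the windows at members and 67.0% of those at all peaks, and the full cyclic AMP response element in 4.18% and 3.33%.

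AA, the precursor, gave the members a smaller change than PGE2, as the rule requires. The median log2 change of AA over Vehicle was 0.17 over the members, with quartiles at 0.02 and 0.31, against -0.01 over all peaks. The AA mean exceeded the Vehicle mean in 511 members (72.0%, against 45.5% of all peaks). Both AA libraries lay above both Vehicle libraries in 302 members (42.5%, against 30.2% of all peaks) and below both in 66 (9.30%, against 36.2%), and the groups overlapped in 342. The rule caps the AA and the Vehicle libraries and leaves out peaks most open with both treatments. The choice of members thus shapes these shares on both sides, and nothing about AA is read from them. Of the members, 98 were called higher with AA than with Vehicle (edgeR), where 16.7% of all tested peaks were called higher, and 1 was called lower, where 13.8% were. Without PGE2 replicate 1 or 2, 149 members were called higher in each case, where 18.6% and 18.7% of all peaks were. Without AA replicate 1 or 2 these counts were 61 (12.5% of all peaks) and 32 (11.9%), and without Vehicle replicate 1 or 2 they were 53 (11.5%) and 37 (11.8%). DESeq2 called 17 of 696 members higher (7.23% of all peaks). By place, the median was 0.19 at gene ends, 0.09 inside genes and 0.00 outside genes.

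Among the 10 members with the most PGE2 signal, the first was the promoter peak of Stt3b (chr9:115309608-115311439, overlapping the start), which encodes a catalytic subunit of the enzyme that attaches sugar chains to proteins in the endoplasmic reticulum. It had 75.9 and 84.8 CPM with PGE2, 49.1 and 55.7 CPM with AA and 36.5 and 37.5 CPM with Vehicle. The 3 groups did not overlap, and AA lay between the others. Its log2 change with PGE2 was 1.16 ± 0.07 against Vehicle and 0.63 ± 0.07 against AA (± SE of the edgeR fit), and with AA over Vehicle 0.53 ± 0.08. Rpn2 (chr2:157278545-157279834), a further subunit of that enzyme, had 52 and 59.7 CPM with PGE2, 39.8 and 39.2 CPM with AA and 28.8 and 30.7 CPM with Vehicle, the same order of groups. Its ratio was 1.31, and it met the rule under 0 of the 3 other scalings. Sec62 (chr3:30792737-30794157), of the machinery that moves proteins into the endoplasmic reticulum, had 22 and 30.3 CPM with PGE2, 15.3 and 15.4 CPM with AA and 13.1 and 13.1 CPM with Vehicle, with PGE2 replicate 2 well above replicate 1. These 3 were the members among 235 peaks at 53 genes of the secretory pathway and unfolded protein response. That share of 1.28% was near the 0.976% of all peaks with a gene within 50 kb.

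Zfp131 (chr13:119789891-119791947), a zinc finger gene, had 57.5 and 59.9 CPM with PGE2, 37.9 and 39.1 CPM with AA and 30.2 and 30.2 CPM with Vehicle. The libraries of each group were close together and the groups did not overlap, with log2 changes of 1.01 ± 0.07 against Vehicle and 0.62 ± 0.07 against AA. Gjb2 (chr14:57103282-57104994), which encodes a gap junction protein of epithelia, had 56.2 and 60.3 CPM with PGE2, 38.5 and 39.6 CPM with AA and 35.3 and 34 CPM with Vehicle, with log2 changes of 0.79 ± 0.07 against Vehicle and 0.59 ± 0.07 against AA. Sun1 (chr5:139199978-139201479), a protein of the inner nuclear membrane, had 63.6 and 69.7 CPM with PGE2, 45.9 and 46.8 CPM with AA and 40.1 and 44.6 CPM with Vehicle. Its AA libraries were above its Vehicle libraries by a narrow margin. Zfp131 and Gjb2 met the rule under all 3 other scalings, and Sun1 did not when gene ends were scaled separately.

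Dazap2 (chr15:100614476-100616462) had 54.6 and 67.6 CPM with PGE2, 41 and 40.5 CPM with AA and 32.9 and 34.2 CPM with Vehicle, and Fam102a (chr2:32534455-32535846) had 63.1 and 78.8 CPM with PGE2, 44.8 and 48.4 CPM with AA and 43.3 and 42.1 CPM with Vehicle. B3galt6 (chr4:155991358-155993630), whose enzyme builds the linker of proteoglycan sugar chains, had 51.6 and 62.2 CPM with PGE2, 36.5 and 37.3 CPM with AA and 32.9 and 30.8 CPM with Vehicle. In all 3 peaks PGE2 replicate 2 was the higher of the pair. The gap between the PGE2 libraries was widest at Zbtb25 (chr12:76368825-76371632), a zinc finger and BTB domain gene, with 50.2 and 74.1 CPM with PGE2, 36.2 and 38.1 CPM with AA and 31.3 and 25.1 CPM with Vehicle; the SE of its log2 change of 1.19 against Vehicle was 0.28. The one among these 10 that was not at a gene end was inside Nfkbiz (chr16:55821701-55823063), the gene of a nuclear regulator of NF-kB that is active in mucosal defence. It had 53.9 and 65.3 CPM with PGE2, 38.5 and 39.1 CPM with AA and 34.6 and 37.7 CPM with Vehicle. B3galt6 and Nfkbiz met the rule under all 3 other scalings, and Fam102a under no other scaling. Dazap2 did not meet it when gene ends were scaled separately, and Zbtb25 met it only with TMM.

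**Figure D5:**
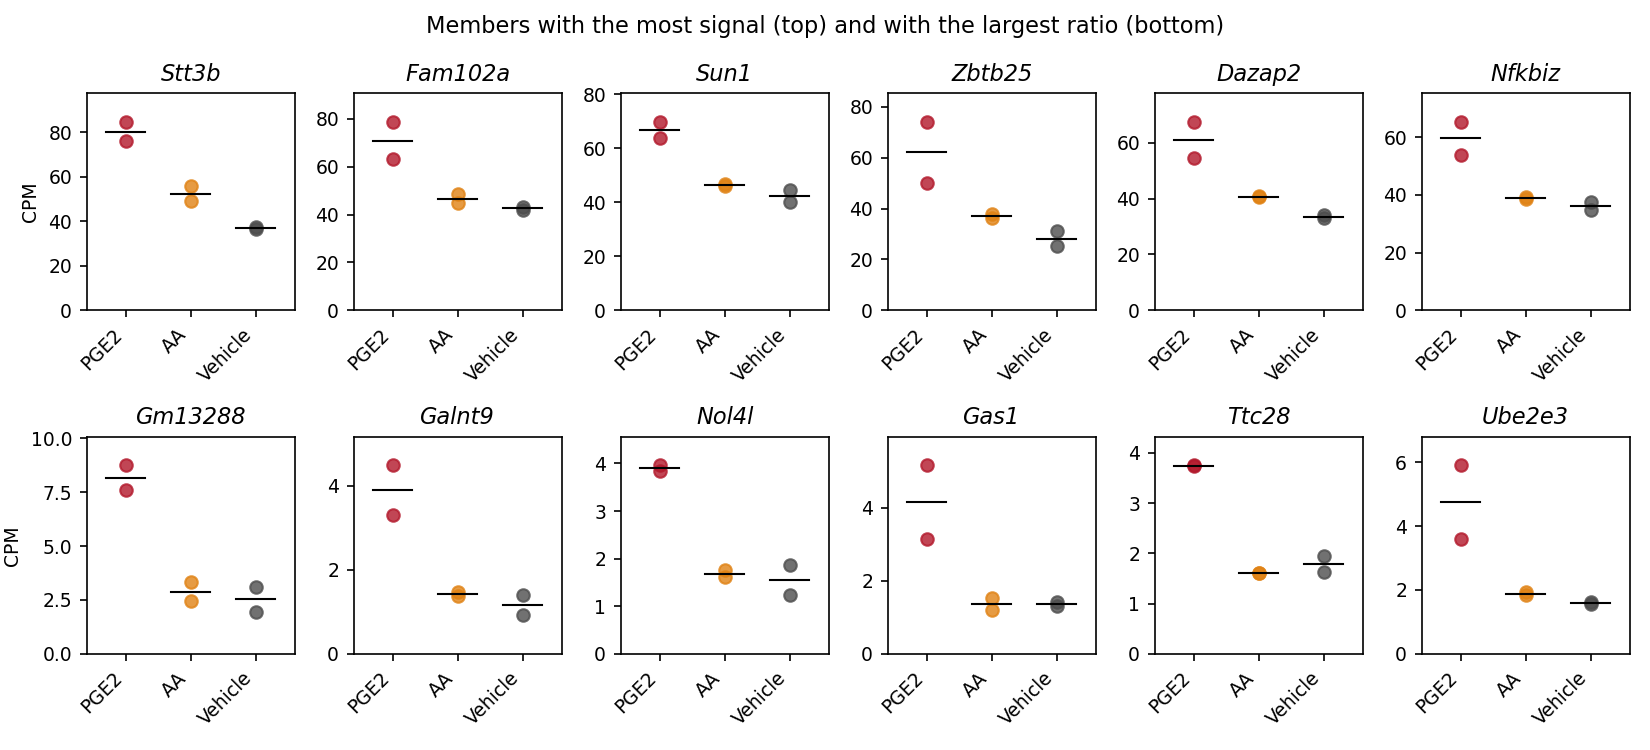
Each point is the CPM of 1 library, each line the mean of 2, for 6 members with the most PGE2 signal (top row) and 6 with the largest ratio of the lower PGE2 library to the highest other library (bottom row); axes start at 0. Both PGE2 libraries lie above the other 4 in each panel, as the rule requires, and the bottom row has means below 10 CPM.

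The largest ratios, among members with a mean of at least 2 CPM, came from weaker peaks. At the gene end of Gm13288, a gene model (chr4:88805535-88806224), 7.59 and 8.75 CPM with PGE2, 2.46 and 3.31 CPM with AA and 1.95 and 3.1 CPM with Vehicle were measured, a ratio of 2.29 and log2 changes of 1.73 ± 0.20 against Vehicle and 1.53 ± 0.19 against AA. Galnt9 (chr5:110544196-110544878), whose enzyme starts sugar chains of the mucin type, had 3.29 and 4.48 CPM with PGE2, 1.48 and 1.37 CPM with AA and 1.4 and 0.93 CPM with Vehicle, and Gas1 (chr13:60175915-60176668), a co-receptor of hedgehog ligands, 3.14 and 5.16 CPM with PGE2, 1.19 and 1.54 CPM with AA and 1.4 and 1.32 CPM with Vehicle. At these peaks AA and Vehicle overlapped, and PGE2 stood above both. Nol4l and Ttc28 had 3.9 CPM with PGE2, 1.69 CPM with AA and 1.56 CPM with Vehicle, and 3.75 CPM with PGE2, 1.62 CPM with AA and 1.79 CPM with Vehicle. Ap1b1, a subunit of a clathrin adaptor, had 8.2 and 11 CPM with PGE2, 3.65 and 3.72 CPM with AA and 4.37 and 4.5 CPM with Vehicle, with both AA libraries below both Vehicle libraries. Zdhhc18, a palmitoyltransferase gene, had 6.96 CPM with PGE2, 3.68 CPM with AA and 3.54 CPM with Vehicle on average. Inside genes, Lmx1b, a homeobox gene, had 3.9 CPM with PGE2, 1.84 CPM with AA and 1.94 CPM with Vehicle, and Sptbn4, a spectrin gene, had 7.22 CPM with PGE2, 3.22 CPM with AA and 3.58 CPM with Vehicle. These 9 genes and Ube2e3, described with its family, form the 10 with the largest ratios, and all 10 met the rule under all 3 other scalings. Peaks picked for the largest ratios lie farthest from the threshold, so this is a description and not a check.

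By the roles of the nearest genes, 0 of 146 peaks at 20 genes of prostaglandin synthesis, receptors and transport were members. Downstream of the receptors, 6 of 203 peaks at 28 cyclic AMP signalling genes were (2.96%, against 0.976% of all 68010 peaks with a gene within 50 kb), all at gene ends. Gnas, the gene of the stimulatory G protein, held 3 of them. They were adjacent, at chr2:174328971-174329272, chr2:174329622-174329969 and chr2:174330304-174331145. The first had 3.83 and 2.99 CPM with PGE2, 1.48 and 2.02 CPM with AA and 1.48 and 2.02 CPM with Vehicle. The second had 3.14 and 4.56 CPM with PGE2, 1.48 and 1.45 CPM with AA and 2.03 and 1.63 CPM with Vehicle, and the third had 7.89 and 7.77 CPM with PGE2, 5.9 and 5.17 CPM with AA and 4.52 and 4.03 CPM with Vehicle. The third was higher with AA than with Vehicle, while at the other 2 these groups overlapped or AA was lower. The second met the rule under all 3 other scalings.

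Adcy9, an adenylyl cyclase gene (chr16:4419386-4420875), had 19.8 and 25.2 CPM with PGE2, 15.1 and 15.2 CPM with AA and 11.5 and 14 CPM with Vehicle. Prkaca (chr8:83996568-83997370), the catalytic subunit of protein kinase A, had 12.4 and 18.3 CPM with PGE2, 9.13 and 9.54 CPM with AA and 7.49 and 6.67 CPM with Vehicle, and Pde3b (chr7:114414519-114416739), a phosphodiesterase that breaks cyclic AMP down, 9.96 and 9.79 CPM with PGE2, 5.76 and 7.52 CPM with AA and 6.94 and 6.98 CPM with Vehicle. Their ratios of 1.3 lay at the threshold. Adcy9 and Prkaca met the rule under no other scaling, and Pde3b met it only with TMM. Over the 203 peaks of the list, the median log2 change of PGE2 over Vehicle was 0.01, with 33 called higher and 20 lower by edgeR, where 14.3% and 10.6% of all tested peaks were.

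Of 141 peaks at CREB factors and cyclic AMP target genes, 3 were members (2.13%, against 0.976% of all peaks with a gene). Nr4a2, an orphan nuclear receptor gene (chr2:57122950-57124590), had 21.5 and 22.8 CPM with PGE2, 15.5 and 13.1 CPM with AA and 15.4 and 11.6 CPM with Vehicle. Crtc1, a coactivator of CREB (chr8:70438938-70440019), had 21.8 and 22.1 CPM with PGE2, 13.8 and 15.8 CPM with AA and 13.5 and 13.2 CPM with Vehicle. A peak 265 bp from an annotated end of Ppargc1a, a coactivator of mitochondrial genes (chr5:52115752-52116484), had 9.96 and 10.8 CPM with PGE2, 6.67 and 6.87 CPM with AA and 7.1 and 6.2 CPM with Vehicle. The AA and Vehicle libraries overlapped at Nr4a2 and Ppargc1a. Nr4a2 and Crtc1 did not meet the rule when gene ends were scaled separately. The Ppargc1a peak, not counted as a gene-end peak, met it there by construction. The median log2 change of this list was 0.00 over Vehicle. Of its 141 peaks, 23 were called higher and 30 lower, where 14.3% and 10.6% of all tested peaks were.

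The Wnt feedback and target list gave 5 members of 207 peaks (2.42%, against 0.976% of all peaks with a gene). Axin2, a Wnt-induced brake on beta-catenin (chr11:108920091-108921295), had 34.3 and 53.3 CPM with PGE2, 25.2 and 24.2 CPM with AA and 21 and 22.3 CPM with Vehicle. Notum, a secreted enzyme that inactivates Wnt ligands (chr11:120659809-120661427), had 8.05 and 14.5 CPM with PGE2, 5.55 and 5.41 CPM with AA and 6.01 and 3.26 CPM with Vehicle. At both, PGE2 replicate 2 was far above replicate 1, with log2 changes of 1.07 ± 0.29 against Vehicle and 0.84 ± 0.28 against AA for Axin2 and 1.33 ± 0.48 against Vehicle and 1.06 ± 0.46 against AA for Notum. Sp5, a transcription factor gene induced by Wnt (chr2:70475644-70477213), had 25.2 and 25.6 CPM with PGE2, 16.9 and 17.3 CPM with AA and 15.2 and 15.3 CPM with Vehicle, close within each group and without overlap between groups. Tcf7l2 (chr19:55742576-55743106), the DNA-binding partner of beta-catenin in the crypt, had 4.14 and 6.88 CPM with PGE2, 3.02 and 2.59 CPM with AA and 1.79 and 2.09 CPM with Vehicle. Tnfrsf19, a receptor gene of crypt cells, had a weak peak inside the gene with 1.81 CPM with PGE2, 1.09 CPM with AA and 0.855 CPM with Vehicle. Of these, Sp5 and Tnfrsf19 met the rule under all 3 other scalings. Over the 207 peaks of the Wnt list, the median log2 change of PGE2 over Vehicle was 0.04. Of them, 29 were called higher and 14 lower (14.3% and 10.6% of all tested peaks). Sp5, Axin2 and Tnfrsf19 were also the 3 members among 266 peaks at crypt base stem cell genes (1.13%, near the share of all peaks). In that list 36 peaks were called higher and 35 lower, with a median of -0.04.

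No member lay nearest to a gene of the fetal and regenerative list (0 of 127 peaks), of the absorptive enterocyte list (0 of 149), of AP-1 and immediate early factors (0 of 134), of EGF family ligands and receptors (0 of 90), of proliferation and replication (0 of 83) or of ribosomal proteins (0 of 272). At the 0.976% share of all peaks with a gene, lists of this size would hold few members or none. Little can therefore be read from a count of 0 in this paragraph. The medians of these lists for PGE2 over Vehicle were 0.20, -0.16, -0.05, 0.17, 0.09 and 0.04 in that order on the log2 scale. Peaks called higher and lower against Vehicle numbered 47 and 5 in the fetal list, 6 and 35 in the enterocyte list, 22 and 25 in the AP-1 list, 20 and 8 in the EGF list, 22 and 2 in the proliferation list and 38 and 15 in the ribosomal list (14.3% and 10.6% of all tested peaks). Against AA, the fetal list had 1 peak called higher and 26 lower (4.88% and 5.07% of all tested peaks), with a median log2 change of -0.13. Paneth, enteroendocrine and tuft cell genes gave 0 of 24, 0 of 39 and 0 of 35. Of 96 peaks at 14 goblet cell genes 1 was a member, and the list had a median log2 change of 0.01 over Vehicle, with 12 peaks called higher and 14 lower. The member was at Tff3, a secreted trefoil factor, with 2.83 and 2.99 CPM with PGE2, 1.83 and 1.62 CPM with AA and 1.17 and 1.47 CPM with Vehicle. Foxa1, a forkhead factor of secretory and endodermal cells (chr12:57545064-57545787), had 16.4 and 17.5 CPM with PGE2, 11.2 and 11.1 CPM with AA and 10.1 and 11.2 CPM with Vehicle and was 1 of 2 members at 249 peaks of identity transcription factors, with Tcf7l2.

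Among RNA splicing factors 3 of 139 peaks were members (2.16%, against 0.976% of all peaks with a gene). All 3 were among the 43 gene-end peaks of the list, and of all 14650 gene-end peaks 474 were members. Hnrnpu, an RNA-binding protein of the nuclear scaffold (chr1:178336907-178338638), had 24.7 and 32.1 CPM with PGE2, 16.7 and 17.1 CPM with AA and 14.5 and 13.7 CPM with Vehicle. Clk3, a kinase of splicing factors (chr9:57764295-57766121), had 47.2 and 49 CPM with PGE2, 28 and 32.8 CPM with AA and 22.6 and 23.7 CPM with Vehicle, and Tra2a, a splicing activator (chr6:49263220-49264249), 27 and 28.1 CPM with PGE2, 18.1 and 19.96 CPM with AA and 17.4 and 15.6 CPM with Vehicle. At each the PGE2 libraries were highest and AA lay above Vehicle. Over the 139 peaks of the list, 32 were called higher with PGE2 than with Vehicle and 5 lower (14.3% and 10.6% of all tested peaks), with a median log2 change of 0.04.

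Ubiquitin conjugating enzymes, which pass ubiquitin or a related protein to targets, gave 9 members of 140 peaks (6.43%, against 0.976% of all peaks with a gene) at 7 genes, 7 of them at gene ends. Ube2e3 held 2, at chr2:78869046-78869368 with 3.6 and 5.9 CPM with PGE2, 1.83 and 1.94 CPM with AA and 1.56 and 1.63 CPM with Vehicle, and next to it at chr2:78869582-78869891 with 2.61 and 2.39 CPM with PGE2, 1.33 and 1.37 CPM with AA and 1.17 and 1.55 CPM with Vehicle. Ube2k also held 2, a gene-end peak (chr5:65536492-65538209) with 37.4 and 39.8 CPM with PGE2, 26.5 and 26.8 CPM with AA and 20.5 and 22.7 CPM with Vehicle, and a weak one outside the gene with 2.12 CPM with PGE2, 0.85 CPM with AA and 1.2 CPM with Vehicle. Ube2m, which conjugates the ubiquitin-like NEDD8 (chr7:13037865-13038877), had 44.6 and 43.1 CPM with PGE2, 30.6 and 32.6 CPM with AA and 30.9 and 31.5 CPM with Vehicle, and Ube2l3 (chr16:17200311-17201733) had 12.3 and 13 CPM with PGE2, 7.16 and 8.4 CPM with AA and 6.01 and 7.13 CPM with Vehicle. The AA and Vehicle libraries overlapped at Ube2m and not at Ube2l3. The list as a whole had a median log2 change of 0.05 over Vehicle, with 36 of 140 peaks called higher and 9 lower (14.3% and 10.6% of all tested peaks).

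The zinc finger protein list held 11 members of 1016 peaks (1.08%) and the solute carrier list 14 of 1727 (0.811%), shares near the 0.976% of all peaks with a gene. Zfp664 (chr5:124862059-124863726) had 39.2 and 42.9 CPM with PGE2, 20.9 and 25.5 CPM with AA and 19.1 and 17.8 CPM with Vehicle. Slc44a1, a choline transporter gene (chr4:53439925-53440456), had 12.6 and 18.9 CPM with PGE2, 6.67 and 7.76 CPM with AA and 6.32 and 5.5 CPM with Vehicle, and Slc11a2, the iron transporter gene of the intestinal epithelium (chr15:100422557-100423540), 32.4 and 37.4 CPM with PGE2, 24.5 and 23 CPM with AA and 19 and 17.9 CPM with Vehicle. AA lay above Vehicle without overlap at all 3. Other lists gave few members. H1f0, a linker histone gene and the 1 member of 105 core histone list peaks, had 15.7 CPM with PGE2, 9.42 CPM with AA and 6.57 CPM with Vehicle. Ndufab1 and Cox4i1, the 2 members of 201 peaks at respiratory chain genes, had 23 CPM with PGE2, 15 CPM with AA and 12.8 CPM with Vehicle, and 27.2 CPM with PGE2, 15.7 CPM with AA and 10.7 CPM with Vehicle. Cox4i1, at a ratio of 1.3, met the rule under no other scaling, and Ndufab1 did not when gene ends were scaled separately. Sod2, a mitochondrial superoxide dismutase and with Nfkbiz 1 of 2 members of 96 peaks of NF-kB and epithelial defence genes, had 46.9 CPM with PGE2, 32.5 CPM with AA and 28 CPM with Vehicle, and Eif4b, a translation initiation factor and the 1 member of 105 peaks of its list, 46 CPM with PGE2, 33 CPM with AA and 27.1 CPM with Vehicle. Eif4b met the rule only with TMM, and Sod2 and Slc11a2 did not meet it when gene ends were scaled separately.

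Developmental transcription factor genes, a list drawn up after the members had been seen, held 21 members of 968 peaks (2.17%, against 0.976% of all peaks with a gene). Most were weak peaks. Hoxa10 (chr6:52234034-52234514) had 1.99 and 2.69 CPM with PGE2, 0.773 and 0.97 CPM with AA and 0.936 and 0.775 CPM with Vehicle, and Hoxd1 (chr2:74762850-74763119) 1.99 and 2.09 CPM with PGE2, 0.913 and 0.889 CPM with AA and 1.01 and 0.62 CPM with Vehicle. Hoxd9, Hoxa5 and Hoxa13 were members as well, with PGE2 means of 4.57, 10.4 and 2.19 CPM, AA means of 2.21, 6.83 and 1.54 CPM and Vehicle means of 1.67, 6.46 and 1.17 CPM. HOX genes set position along the body axis. Foxo6 had the most signal of the list, 29.3 and 33.4 CPM with PGE2, 17.8 and 18.9 CPM with AA and 18 and 17.3 CPM with Vehicle, and its AA and Vehicle libraries overlapped. Foxd3, a factor of neural crest, held 3 adjacent members, the strongest with 4.14 and 4.56 CPM with PGE2, 2.6 and 2.75 CPM with AA and 2.5 and 2.25 CPM with Vehicle. Scrt2, Lmx1b, Neurod2, Onecut1, Gsx1, Pax2, Pax5, Foxc1, Foxj3, Twist2, Nkx2-3 and Foxa1 made up the remainder, with PGE2 means of 2.53 to 16.9 CPM.

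Voltage-gated and two-pore ion channel genes, also listed after the members had been seen, held 12 members of 480 peaks, 10 of them at gene ends. The share was 2.5%, against 0.976% of all peaks with a gene. Kcnk15, a potassium channel gene (chr2:163853635-163853958), had 1.84 and 1.94 CPM with PGE2, 0.702 and 0.808 CPM with AA and 0.936 and 0.853 CPM with Vehicle. Kcnb2 and Kcns2, both of potassium channels, had 3.17 CPM with PGE2, 1.29 CPM with AA and 1.32 CPM with Vehicle, and 2.23 CPM with PGE2, 1.2 CPM with AA and 1.05 CPM with Vehicle. Cacna1a, a calcium channel gene, had the most signal of the list, 13.4 and 16.4 CPM with PGE2, 8.85 and 8.49 CPM with AA and 6.01 and 6.74 CPM with Vehicle, with AA above Vehicle. Nothing particular to either list is read from shares of lists drawn up in this way.

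The 664 members with a gene within 50 kb fell at 643 genes. Gnas and Foxd3 held 3 each, 17 genes held 2 and 624 held 1. Cadm1, a cell adhesion gene, and Casz1 and Cbfa2t3, both of transcription regulators, were among those with 2. By chromosome, members were from 0.632% of the peaks on chromosome 6 to 1.17% on chromosome 19, and every autosome held at least 21. A peak may act on a gene other than the nearest, and gene expression was not measured in these libraries.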

How the data were processed

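ATAC-seq was made from 6 libraries of mouse intestinal organoids, 2 per group. The deposited table gives raw counts per consensus peak and library. Counting of read pairs was by featureCounts 1.6.3, per the file headers; per the submitters' processing notes, Trim Galore, BWA, Picard, SAMtools and MACS2 were used with build mm10. Settings, and any shift of reads for the cut offset of the transposase, were not given in the sources used here. A region in no consensus peak was not measured.

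Levels are CPM over column totals (12374232 to 14236985 counts). The log2 changes came from edgeR 4.0.16 (R 4.3.3), with TMM, filterByExpr (1476 peaks removed), all 6 libraries in 1 quasi-likelihood fit with 3 residual degrees of freedom, Benjamini-Hochberg adjustment over 89347 peaks and a threshold of 0.05; standard errors follow from the F statistic. The fit was tested on simulated data. DESeq2 1.42.0, other scalings, thresholds, filters and leaving out each library were the alternatives. Tables were handled with Python 3.11.15 and pandas 2.3.3.

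Peaks took the nearest annotated start or end of a protein-coding gene within 50 kb of the peak centre, from RefSeq tables of GRCm38.p6. The promoter table held starts for 17492 of 21900 protein-coding genes. Of 605 listed names, 4 were not matched.

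The text names 1 peak per gene: the 10 largest ratios (mean of at least 2 CPM), the 10 highest PGE2 means, up to 3 members per list, 3 peaks on each side of the threshold and genes with the most members; further genes from the lists were named after their values were seen. Promoters shown are the 6 with the most PGE2 signal among named gene-end members with a table entry. The members and lists were chosen with earlier results of these data known. Some items that the rule names are not reported here.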

Additional observations from a re-analysis of the deposited data

Results flagged for a closer look

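The X chromosome was outside the rule. Of 1756 peaks on the sex chromosomes with a mean of at least 1 CPM, 7 met the same ratios (0.399%, against 0.854% of autosomal peaks with that minimum). All of them were on X and 5 at gene ends. The count is above none and so drew attention to data that the choice of members did not use. Klhl15, an adaptor gene of a ubiquitin ligase, had 16.1 and 16.7 CPM with PGE2, 10.04 and 8.73 CPM with AA and 9.28 and 7.36 CPM with Vehicle at its gene end. Elf4, an ETS factor gene, had 20.8 and 21.9 CPM with PGE2, 13.1 and 13.8 CPM with AA and 13.3 and 11.5 CPM with Vehicle. Peaks near Efnb1, Pdzd4, Bex3 and Tsc22d3 had PGE2 signals of 2.15 to 9.42 CPM.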

How the results depend on the processing

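The number of members was 710 by the rule, 1774 at a ratio of 1.2 and 139 at 1.5; with other scalings and minimum signals it was 545 to 802. With 1 library left out it was 913 to 3341, since fewer libraries then have to meet the ratio: 3341 without PGE2 replicate 1, 1656 without PGE2 replicate 2 and 1392 without AA replicate 2. The gene-end share of 66.8% was 61.4% with a 500 bp window and 73.5% with 5 kb (15.8% and 28.9% of all peaks), 61.6% with TMM, 60.9% with DESeq2 size factors, 32.9% with gene ends scaled separately, 62.7% with no minimum signal, 77.6% at 2 CPM and 37.0% to 72.9% with 1 library left out, against 17.6% of all peaks; the cause of the low values was not tested. The choice of members fixes the sign of their PGE2 changes. With 1 library left out the median log2 changes were 0.76 to 1.00 for PGE2 over Vehicle, 0.59 to 0.86 for PGE2 over AA and 0.14 to 0.21 for AA over Vehicle, and the last was 0.13 with library totals and 0.10 with gene ends scaled separately.

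Counts of called peaks depended on the tool and their split on the scaling. PGE2 against Vehicle gave 22261 (57.5% higher), library totals 23651 (48.8% higher, so that the larger side turned), DESeq2 7377 (71.8% higher), 14247 without Vehicle replicate 1 and 13667 without Vehicle replicate 2 (13667 to 21339 with 1 library left out). PGE2 against AA gave 8890 (49.1% higher; 36.7% without AA replicate 1 to 63.5% without PGE2 replicate 1), DESeq2 582 (60.7% higher), 5627 without PGE2 replicate 2, 3075 without AA replicate 1 and 4028 without AA replicate 2 (3075 to 9643). AA against Vehicle gave 27282 (54.7% higher), library totals 28048 (49.0% higher), DESeq2 9058 (66.9% higher) and 18217 to 30458 with 1 library left out. With the replicate number as a block these counts were 22660, 9406 and 27626. The labels do not say whether libraries of the same replicate number belong together. The differences between replicates 1 and 2 correlated across peaks at 0.04 for PGE2 and AA, -0.02 for PGE2 and Vehicle and 0.01 for AA and Vehicle. Counting error in single libraries lowers such correlations, so they do not settle whether the libraries are paired. With genes within 10 kb in place of 50 kb, 64 members in place of 74 lay at listed genes. Weak peaks had the widest errors.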
